A study of Mus musculus with 9 samples.

Results

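The genes described here build the ends and the middle of the cardiac sarcomere: *Ttn* (titin), *Actn2*, *Tcap*, *Ldb3*, *Myoz2*, *Csrp3* and *Nebl*, whose products reside in or reach the Z-disc, together with *Myom1* and *Mybpc3*, which encode proteins of the M-band and of the thick filament. They were chosen by name, and all 9 were present among the 14011 genes of the expression table of a mouse series on *Ctcf*, the gene of the insulator and chromatin architecture protein CTCF. RNA-seq was performed on whole hearts at E10.5 from control embryos, embryos of the genotype Ctcf fl/+; Nkx2.5-Cre/+, called heterozygotes below, and embryos of the genotype Ctcf fl/fl; Nkx2.5-Cre/+, called homozygotes, with 3 libraries per genotype and a pool of 6 hearts in each library, on a mixed strain background. The labels give the controls as Ctcf fl/fl, whereas the text of the study describes the sequenced controls as Ctcf fl/+ without the driver, so that they carried the floxed allele but no Cre. The table heads the columns taken here as controls with Het, which is not their title in the labels, and they were assigned because their means equal the averages that the study's supplementary table gives for controls (1998 of 1998 genes, within 0.0001). Every comparison with the controls therefore also included the Nkx2.5-Cre driver, which recombines in early cardiac cells, while the endocardium kept CTCF. Homozygotes against heterozygotes was the comparison in which both groups carried Cre.

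A sarcomere runs from one Z-disc to the next. Alpha-actinin cross-links the barbed ends of actin filaments at the Z-disc, and the PDZ-LIM, myozenin and LIM-only proteins bind to this lattice. Titin spans from the Z-disc to the M-band, where myomesin links it to the thick filaments, and cardiac myosin-binding protein C sits along the thick filament on either side. In the embryonic heart these structures assemble while the myocardium already beats, and several of these proteins also act in sensing stretch.

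In homozygotes, *Actn2* fell and *Csrp3* rose against controls, and *Actn2* and *Myom1* fell against heterozygotes. The calls against controls were lost in 5 (*Actn2*) and 3 (*Csrp3*) of 22 alternative fits, among them fits that left out a single pool. Against heterozygotes the call was lost in 1 for *Actn2* and in 0 for *Myom1*. *Ttn* and *Nebl* were lower on average in both comparisons but missed the threshold, with wide differences between the homozygous pools. *Tcap*, *Ldb3*, *Myoz2* and *Mybpc3* passed in no comparison. A gene was called at a limma adjusted p under 0.05 over all genes of the table, and values are normalized values, that is, reads scaled to the effective size of the library, unless a value per kilobase is stated.

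Sequence upstream of the transcription start is shown for the 3 called genes, since the differences between genotypes passed the threshold for these. The 250 bases before the start came from RefSeq (GRCm38.p6), written 5′ to 3′ on the strand of the gene, with capitals marking matches to the motifs searched. *Csrp3* is shown for the first of its 2 listed starts. The positions are chr13:12340733-12340982 on the minus strand for *Actn2*, chr17:71019307-71019556 on the plus strand for *Myom1* and chr7:48848052-48848301 on the minus strand for *Csrp3*.
Actn2: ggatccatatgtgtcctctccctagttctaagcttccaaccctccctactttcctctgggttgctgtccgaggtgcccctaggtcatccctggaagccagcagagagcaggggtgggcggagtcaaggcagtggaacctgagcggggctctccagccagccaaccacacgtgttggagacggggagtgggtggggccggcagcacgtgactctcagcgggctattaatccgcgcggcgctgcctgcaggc
Myom1: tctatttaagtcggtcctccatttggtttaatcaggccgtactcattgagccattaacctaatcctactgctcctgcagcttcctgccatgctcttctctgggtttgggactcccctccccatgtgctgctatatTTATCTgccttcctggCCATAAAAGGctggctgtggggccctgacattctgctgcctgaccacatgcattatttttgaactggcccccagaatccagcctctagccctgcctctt
Csrp3: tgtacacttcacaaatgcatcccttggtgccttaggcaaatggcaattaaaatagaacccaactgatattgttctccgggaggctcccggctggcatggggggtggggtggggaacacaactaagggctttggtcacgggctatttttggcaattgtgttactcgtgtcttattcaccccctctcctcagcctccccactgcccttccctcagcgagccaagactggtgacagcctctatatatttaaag
In *Myom1* the capitals mark a CArG box, the site bound by serum response factor, at positions -99 to -90 from the start and a GATA match on the reverse strand at -115 to -110. The windows of *Actn2* and *Csrp3* held none of the 6 motifs.

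For *Ttn*, *Mybpc3*, *Ldb3* and *Nebl*, matches to MEF2 and CArG motifs, both known from muscle promoters, are shown with 10 bases on either side and the match in capitals.
Ttn, MEF2, chr2:76982694-76982723, minus strand: ttctgaaaggCTAAATTTAGcactgccaat
Mybpc3, MEF2, chr2:91118044-91118073, plus strand: tggaatttgtCTATATTTAGcaggtggcta
Ldb3, CArG, chr14:34588697-34588726, minus strand: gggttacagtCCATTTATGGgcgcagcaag
Nebl, CArG, chr2:17462999-17463028, minus strand: gctcccatctCCTAAATTGGctggaaatgc
Both strands were searched for the MEF2 site, the CArG box, the core of the CTCF motif, the M-CAT element of TEAD factors (CATTCC), the GATA site (AGATAA) and the TATA box (TATAAA). *Tcap* had no entry, so 8 of the 9 genes were matched, with 13 starts in all. The CArG box was present upstream of 4 of the 13 starts, the 2 starts of *Ldb3* sharing 1 box, against 1.47% of 32851 mouse promoters. The M-CAT element occurred at 1 start (12.6% of promoters) and the GATA site at 3 (9.99%), and no match overlapped another. Neither the CTCF core (2.93% of promoters) nor the TATA box (12.4%) was found in these windows. A match is a match of letters only, and no binding was measured in these samples.

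*Ctcf* itself was checked first. Its normalized value was 121, 122 and 122 in controls, 101, 94.2 and 97.0 in heterozygotes and 79.6, 80.0 and 84.7 in homozygotes. The 3 genotypes did not overlap, and homozygotes differed from controls by -0.57 (log2, SE 0.06, limma adjusted p = 2.91e-05). The transcript was thus reduced in part in these whole-heart pools, in which fewer cells of a type and less RNA per cell cannot be told apart. By immunostaining at this stage, the study found no cardiomyocyte with CTCF protein in homozygous hearts. It reported no difference in the number of cardiomyocytes. Libraries held 4294537 to 11629365 reads in genes, and the spread between pools of 1 genotype exceeded that of sampling alone. The library with the most reads was homozygote 3. In homozygotes, all 7 erythroid markers were called higher, with a summed level at 171% of controls and 189.9% of heterozygotes (summed values 57769 to 76369.5, 32486 to 47157 and 26089 to 44207 in homozygotes, controls and heterozygotes), and 3 of 5 epicardial markers were called higher in each comparison. The part of these cells in the results below was not tested. Of all genes, 7.19% were called higher against controls and 6.87% against heterozygotes.

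The 9 genes covered a wide range of levels. Per kilobase of exon, *Csrp3*, which encodes muscle LIM protein, had the highest mean over the 9 libraries (464), followed by *Mybpc3* (249), *Actn2* (129.9), *Myom1* (69.7), *Nebl* (49.4), *Ldb3* (49.2), *Tcap* (34.8), *Ttn* (8.62) and *Myoz2* (7.43). This order held between neighbours in 9 of 9 libraries with 2 exceptions. *Nebl* and *Ldb3* did not separate, *Nebl* being above in 5 of 9 libraries, and *Ttn* was above *Myoz2* in 6 of 9. The exonic length behind the low value of *Ttn*, 116828 bases, sums all annotated exons and is the longest of all genes in the table. Without correction for length, *Mybpc3* (1037) and *Ttn* (1007) had the highest mean values and *Tcap* (32.9) and *Myoz2* (25.2) the lowest.

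**Figure D1:**
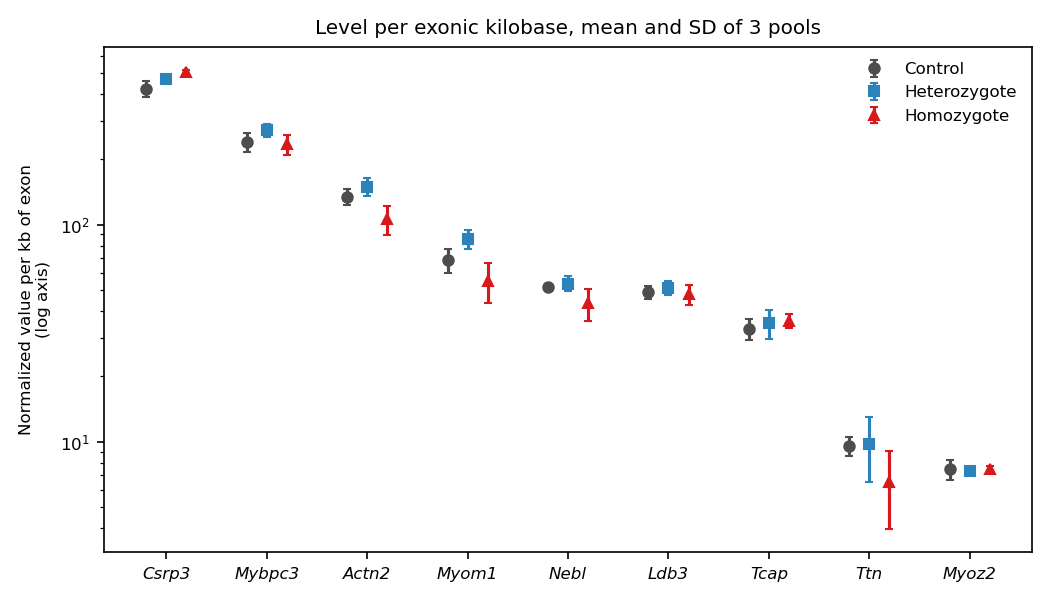
Normalized value per kilobase of exonic length (log axis) for the 9 genes, ordered by their mean over the libraries; symbols are means of 3 pools and bars the SD. *Csrp3* was highest and *Ttn* and *Myoz2* lowest in all genotypes, and *Nebl* and *Ldb3* lay together.

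*Actn2* on chromosome 13 (NCBIM37, 12361693 to 12433027, minus strand) encodes the alpha-actinin of the cardiac Z-disc, which cross-links actin filaments. Its value was 448, 526 and 515 in controls, 497, 605 and 556 in heterozygotes and 392, 448 and 330.1 in homozygotes. All homozygous pools lay below all heterozygous and control pools, but homozygote 2 and control 1 were nearly equal. The mean of the homozygotes was 78.6% of controls (log2 fold change -0.35, SE 0.10, limma adjusted p = 0.0340) and 70.6% of heterozygotes (-0.51, SE 0.10, limma adjusted p = 0.00635). The heterozygotes overlapped the controls, with a difference of 0.15 (95% interval -0.07 to 0.38). The call against controls was lost without control 2 (limma adjusted p = 0.110), control 3 (0.116), homozygote 1 (0.0672) or homozygote 3 (0.131), and in a fit without the mean-variance trend (0.120). Against heterozygotes it was lost only in the fit without the trend (limma adjusted p = 0.0512), among 22 alternatives.

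*Csrp3* on chromosome 7 (56085768 to 56103400, minus strand) encodes muscle LIM protein, a LIM-only protein of the Z-disc associated with stretch sensing. It gave 358, 425 and 398 in controls, 433, 434 and 435 in heterozygotes and 461, 479.6 and 471 in homozygotes. The 3 genotypes formed 3 separate ranges in the order control, heterozygote, homozygote, the opposite order to that of *Ctcf*. The homozygotes were at 119.5% of controls (0.26, SE 0.06, limma adjusted p = 0.0131), the only member called higher. The steps from controls to heterozygotes (0.14, limma adjusted p = 0.639) and from heterozygotes to homozygotes (0.12, adjusted p = 0.242) were not called by limma. The call against controls was lost without control 1, the lowest pool (0.19, limma adjusted p = 0.0593), in a fit without the mean-variance trend (adjusted p = 0.0617) and with the trend over exonic length described below removed (0.09, adjusted p = 0.365).

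*Tcap* on chromosome 11 (98245125 to 98246267, plus strand) encodes telethonin, which caps the titin N termini at the Z-disc. Its values were 28.2, 35.2 and 30.9 in controls, 34.1, 37.8 and 27.8 in heterozygotes and 33.0, 37.0 and 32.5 in homozygotes. The pools of all genotypes overlapped, and homozygotes against controls gave 0.12 (95% interval -0.13 to 0.37, limma adjusted p = 0.532). *Myoz2* on chromosome 3 (122709124 to 122737908, minus strand), which encodes calsarcin-1, a binding partner of alpha-actinin and calcineurin, was close to the same level in all pools, from 23.5 to 28.5 in controls, from 24.1 to 25.8 in heterozygotes and from 24.5 to 26.1 in homozygotes. Its difference between homozygotes and controls was 0.01 (95% interval -0.20 to 0.21, limma adjusted p = 0.976), so that a change of more than about 0.21 on the log2 scale lay outside the interval. *Ldb3* on chromosome 14 (35339885 to 35401867, minus strand) encodes cypher (ZASP), the PDZ-LIM protein that binds alpha-actinin. It gave 275, 316 and 289 in controls, 283, 316 and 326 in heterozygotes and 295, 312 and 255 in homozygotes. The ranges overlapped, and the differences of homozygotes were -0.03 from controls (95% interval -0.21 to 0.14) and -0.11 from heterozygotes (-0.28 to 0.07).

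*Nebl* on chromosome 2 (17265536 to 17653091, minus strand) encodes nebulette, the cardiac relative of nebulin that anchors thin filaments at the Z-disc. The controls lay at 699, 717 and 744, the heterozygotes at 690.1, 744 and 808 and the homozygotes at 571, 723 and 524. Homozygotes 1 and 3 were below every other pool, whereas homozygote 2 lay among the controls. The mean was 84.1% of controls (-0.26, SE 0.10, limma adjusted p = 0.0902) and 81.1% of heterozygotes (-0.31, SE 0.10, adjusted p = 0.0505), and neither difference was called. Without homozygote 2 both were called, at -0.40 (limma adjusted p = 0.00639) and -0.45 (0.00384), whereas without homozygote 3 they were -0.16 (0.309) and -0.22 (0.193). With all pools, the difference from heterozygotes was also called by DESeq2 (adjusted p = 0.0172), voom (0.0465) and limma after a filter at a mean of 10 (0.0406), and both differences under quantile normalization (-0.36 and -0.42, limma adjusted p = 0.0233 and 0.0122), while with the length trend removed they were -0.04 (0.811) and -0.17 (0.185).

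*Ttn* on chromosome 2 (76542037 to 76820604, minus strand) encodes titin, the giant spring of the sarcomere. Its values were 1027, 1090.1 and 1241 in controls, 760.3, 1512 and 1147 in heterozygotes and 735, 1077 and 476 in homozygotes, from 3237 to 11982 reads per library. The highest pool was 3.18 times the lowest. Homozygote 3 was the lowest of the 9 pools, homozygote 2 was at the level of the controls, and heterozygote 1 was at the level of homozygote 1. The homozygotes averaged 68.1% of controls (-0.63, SE 0.25, limma adjusted p = 0.112) and 66.9% of heterozygotes (-0.60, adjusted p = 0.137). Neither difference was called, although both were larger than that of *Actn2*. Under quantile normalization the difference from controls was called (-0.75, limma adjusted p = 0.0480), and with the trend over exonic length described below removed it changed sign (0.07, adjusted p = 0.832), that from heterozygotes being -0.71 (0.0643) and -0.23 (0.418). The SD within genotypes was 0.45 on the log2 scale, above that of 99.8% of the 2023 genes whose mean value reached 100, for which the median SD was 0.08. Without homozygote 2 the difference from controls was -0.92 (limma adjusted p = 0.0242) and that from heterozygotes -0.89 (0.0306), and without heterozygote 1 the latter was -0.87 (0.0421). In the other direction, the differences shrank without homozygote 3 to -0.33 from controls (limma adjusted p = 0.391) and -0.30 from heterozygotes (0.464), and without heterozygote 2 the latter was -0.37 (0.410).

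*Myom1* on chromosome 17 (71368861 to 71476196, plus strand) encodes myomesin-1, which cross-links titin and myosin in the M-band. It gave 339, 385 and 439 in controls, 427, 517 and 503 in heterozygotes and 301, 378 and 252 in homozygotes. All homozygous pools lay below all heterozygous pools, while homozygote 2 lay within the range of the controls. Homozygotes averaged 64.4% of heterozygotes (-0.65, SE 0.13, limma adjusted p = 0.00527), and this call was kept in all 22 alternatives. The difference from controls, 80.0% on average, was not called (-0.33, SE 0.13, limma adjusted p = 0.0970), and depended on single pools: it was called without homozygote 2 (-0.48, limma adjusted p = 0.0171) and was -0.19 without homozygote 3 (adjusted p = 0.343). The heterozygotes averaged 124% of controls, which was not called either (0.32, 95% interval 0.04 to 0.59, limma adjusted p = 0.617).

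*Mybpc3* on chromosome 2 (90958301 to 90976673, plus strand) encodes cardiac myosin-binding protein C, which regulates the interaction of myosin with actin. It gave 889, 1047 and 1067 in controls, 1056, 1215 and 1126 in heterozygotes and 943, 1095 and 897 in homozygotes. The homozygotes overlapped both other groups. They differed from controls by -0.03 (95% interval -0.23 to 0.16) and from heterozygotes by -0.21 (95% interval -0.41 to -0.02, limma adjusted p = 0.137), the latter being called under quantile normalization (-0.35, adjusted p = 0.0274).

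**Figure D2:**
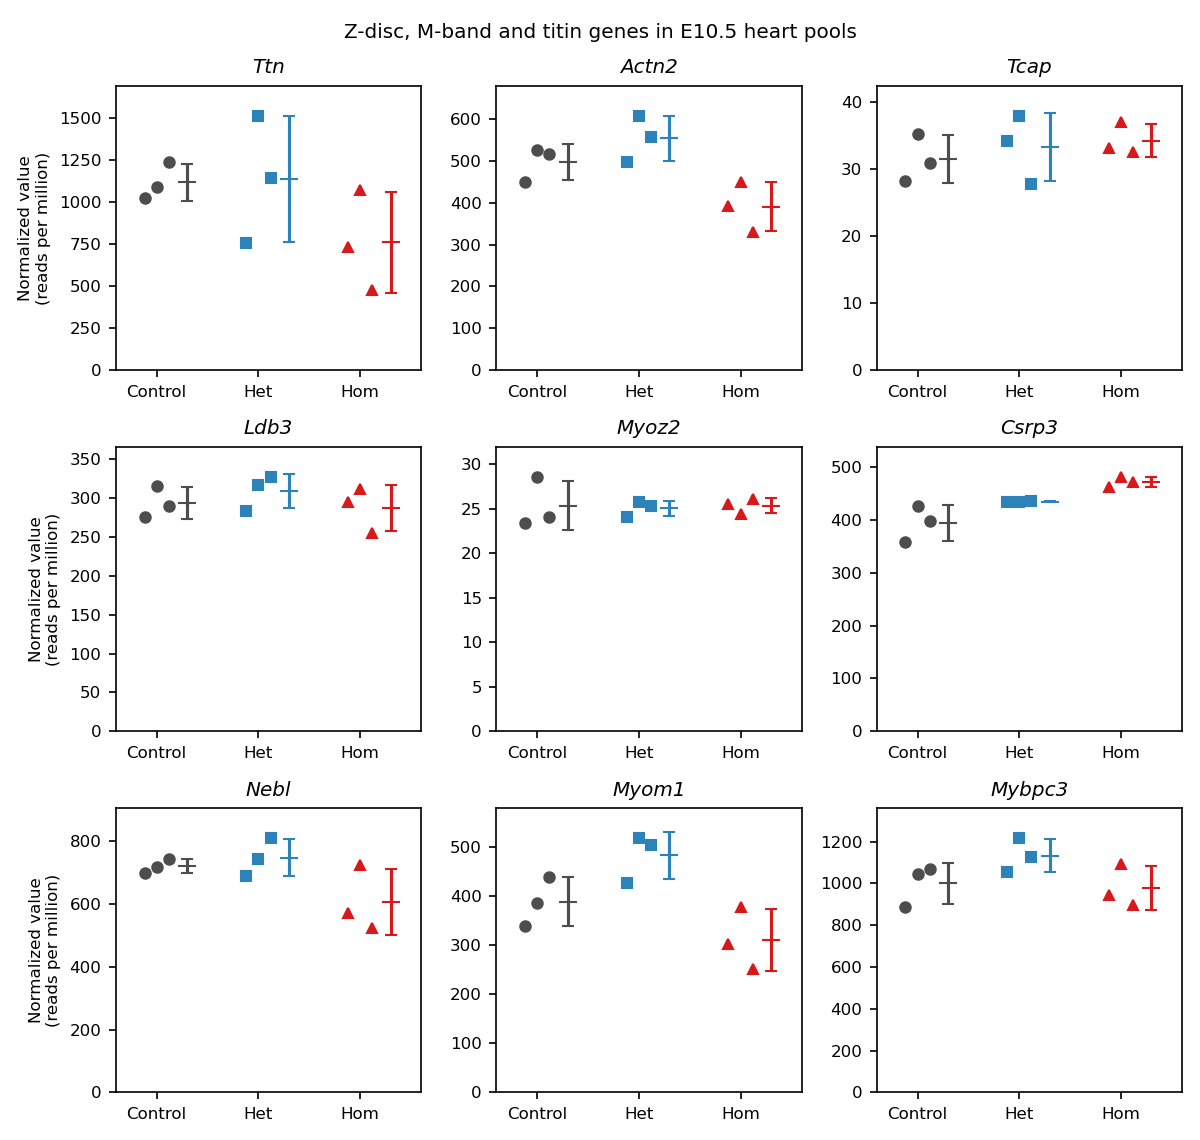
Normalized values (reads scaled to the effective library size) of the 9 genes in each pool of 6 hearts, by genotype; the bar beside the points is the mean and SD of 3 pools. *Csrp3* forms 3 separate ranges, *Actn2* of homozygotes lies below that of heterozygotes (497 to 605), and *Ttn* ranges from 476 to 1077 in homozygotes.

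Counted over the list, 2 of 9 genes were called in homozygotes against controls, 1 higher and 1 lower, where 15.2% of all genes were called (7.19% higher and 8.03% lower). Against heterozygotes 2 of 9 were called, both lower, where 13.6% of all genes were called (6.87% higher and 6.7% lower). A count of 2 of 9 is near these shares of all genes, and it does not set the list apart from the rest of the table. In heterozygotes against controls limma called none of the 9, with 2 at an unadjusted p under 0.05 (*Myom1* and *Csrp3*), and DESeq2 and edgeR also called none; 0.143% of all genes were called by limma (0.0928% higher and 0.05% lower). The median log2 fold change over the 9 genes was -0.03, -0.21 and 0.07 in the 3 comparisons, with -0.00108, -0.00448 and -1.99e-05 over all genes. Homozygous and control pools did not overlap for 2 genes (33.2% of all genes), homozygous and heterozygous pools for 3 (30.8%) and heterozygous and control pools for 1 (14.3%).

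**Figure D3:**
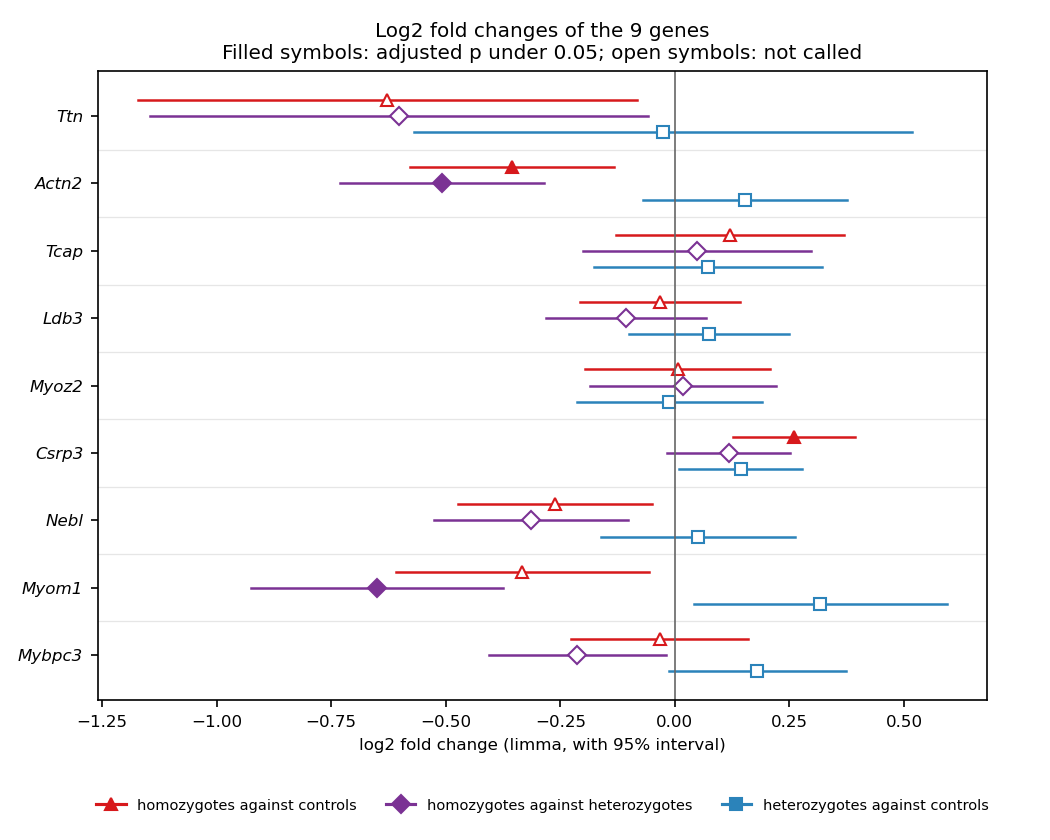
Log2 fold changes with 95% intervals (limma) of the 9 genes in the 3 comparisons; filled symbols have an adjusted p under 0.05. *Actn2* was called in both comparisons of homozygotes, *Myom1* against heterozygotes and *Csrp3* against controls, and the widest intervals belong to *Ttn*.

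Within the list, 6 genes varied together over the 9 libraries. Pairs among *Ttn*, *Myom1*, *Actn2*, *Nebl*, *Ldb3* and *Mybpc3* had Pearson's r between 0.73 and 0.96 on the log2 scale, the closest pair being *Myom1* and *Actn2*. *Tcap*, *Myoz2* and *Csrp3* did not follow them, and *Csrp3* had r = -0.40 with *Ttn*. These coefficients describe 9 libraries that share genotype, scaling and trends of each library, and carry no test. Homozygote 3 held the lowest value of 5 of the 9 genes and control 1 that of 3, while heterozygote 2 held the highest value of 5. The genes most like the mean profile of the 9, chosen by the highest r over the 9 libraries, were *Ppargc1a* (r = 0.985), which encodes the coactivator of mitochondrial biogenesis, *Hk1* (0.950), which encodes a hexokinase, and *Myh7* (0.947), which encodes the beta heavy chain of cardiac myosin. *Ppargc1a* gave 43.8, 52.9 and 51.1 in controls, 47.7, 59.4 and 54.8 in heterozygotes and 38.9, 50.9 and 36.1 in homozygotes. Since these 3 genes were chosen on the same libraries, their values are a description, and they were at -0.37, -0.19 and -0.61 (log2) in homozygotes against heterozygotes in the order named.

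These differences were set beside other genes of the cardiomyocyte. A list of 14 cardiomyocyte markers outside the 9 genes (15 identifiers) summed to 97.4% of controls and 86.2% of heterozygotes in homozygotes, with ranges of 23122 to 26346, 23283 to 26182 and 26642 to 29855 in homozygotes, controls and heterozygotes. Against controls 2 were called higher (*Tnni3* and *Myl4*) and 2 lower (*Ryr2* and *Pln*), and against heterozygotes 5 were called lower. The 9 genes were also taken relative to the mean log2 value of the 15 identifiers in the same library. On this scale *Actn2* was lower in homozygotes by -0.29 against both groups and *Csrp3* higher by 0.33 against both. Each had p = 0.1 in an exact two-sided permutation test, the smallest that 3 against 3 allows. *Myom1* on this scale differed by -0.44 from heterozygotes (exact p = 0.1) and by -0.26 from controls (exact p = 0.3). The same smallest p was reached by genes that limma did not call. On the same scale *Tcap* was higher by 0.19 against controls and 0.26 against heterozygotes, and *Myoz2* by 0.23 against heterozygotes (exact p = 0.1 each). Of 8 skeletal muscle markers 2 were tested. Limma called neither against controls, with 0 at an unadjusted p under 0.05, but *Acta1*, the skeletal alpha-actin gene that the embryonic heart also expresses, was lower against heterozygotes (-0.22, limma adjusted p = 0.0304). Of 5 macrophage markers tested limma called none in either comparison, with 0 at an unadjusted p under 0.05 against controls and 1 against heterozygotes (*Cx3cr1*, 0.65, adjusted p = 0.0970). Over 8 endothelial and endocardial markers 1 was called higher and 2 lower against controls and 1 lower against heterozygotes. Over 6 cushion mesenchyme markers 2 were called lower in each comparison, and over 5 smooth muscle markers 2 were lower against controls and 1 against heterozygotes. Beside all these marker counts stand the shares over all genes, 15.2% called against controls and 13.6% against heterozygotes. The part of these cell types in the results was not tested.

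Exonic length moved with genotype over the whole table. In homozygotes against controls, the 1399 genes with the longest exonic sequence had a median difference of -0.16 (log2) and the 1399 shortest 0.17, with -0.30 for the 100 longest genes after *Ttn*. The slope of a library's deviations on exonic length was above 0 in all 6 control and heterozygous libraries (0.01 to 0.06 per doubling of length) and below 0 in all 3 homozygous libraries (-0.03 to -0.08). Homozygote 3, with the lowest *Ttn* value, also had the lowest slope. *Ttn* and *Nebl* are among the longest genes of the table, while *Csrp3* (932 bases) and *Tcap* (948 bases) are short. With the trend in each library removed, the differences of *Ttn* and *Nebl* moved toward or past 0 and the call of *Csrp3* ended, with the values given above. *Actn2* remained called at -0.36 from controls (limma adjusted p = 0.0379) and -0.50 from heterozygotes (0.00760), and *Myom1* at -0.60 from heterozygotes (0.00697).

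**Figure D4:**
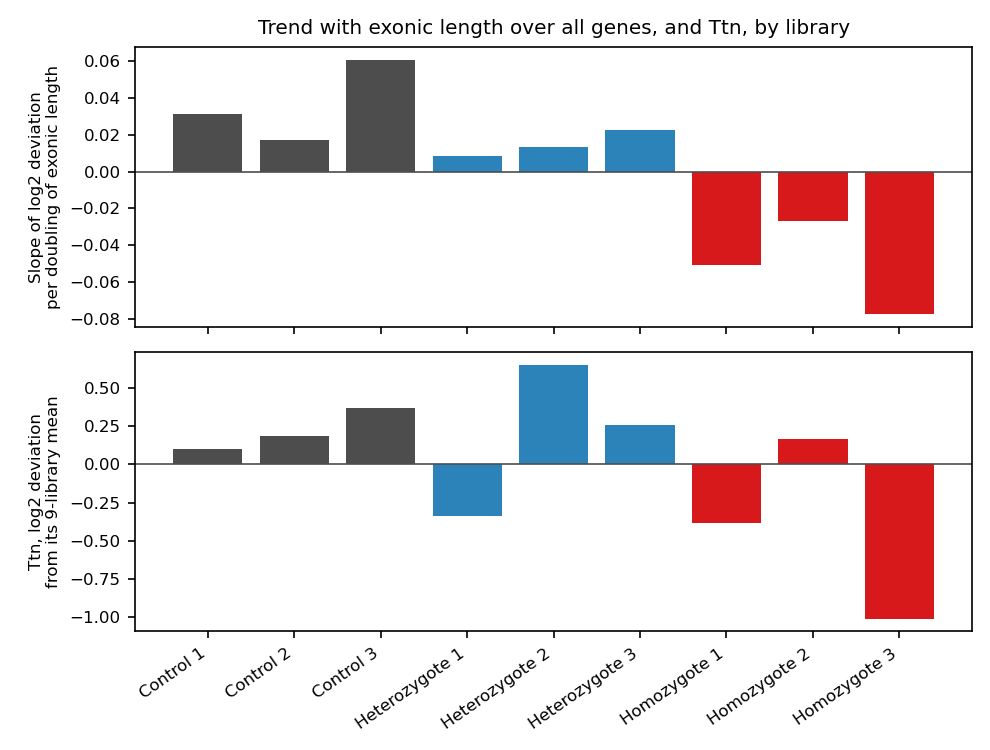
Above, the slope of each library's log2 deviations from the gene means on exonic length (per doubling); below, the log2 deviation of *Ttn* from its mean over the 9 libraries. The 3 homozygous libraries have slopes of -0.03 to -0.08, and *Ttn* is lowest in homozygote 3 (-1.01).

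Among the other proteins of the Z-disc, 31 genes (32 identifiers) of a list of 33 were tested. Against controls 4 identifiers were called higher and 7 lower, and against heterozygotes 2 higher and 9 lower; the median log2 fold changes were -0.12 and -0.10. Beside these counts and those of the 3 lists that follow stand the shares over all genes, 15.2% called against controls (7.19% higher and 8.03% lower) and 13.6% against heterozygotes (6.87% higher and 6.7% lower); the lists were chosen with earlier results known, and no test set them against other genes. *Csrp2*, which encodes a LIM-only relative of *Csrp3*, rose most, from 183, 189 and 179 in controls and 237, 212 and 221 in heterozygotes to 349.8, 283 and 289 in homozygotes (0.73 and 0.46, limma adjusted p = 5.14e-05 and 0.00212). All homozygous pools were above all others. *Actn1*, which encodes the non-muscle alpha-actinin, fell as *Actn2* did, from 217, 224 and 238 in controls and 209, 210.2 and 205 in heterozygotes to 177, 173 and 173 (-0.38 and -0.26, limma adjusted p = 0.000525 and 0.00696). *Actn4*, the other non-muscle form, was not called (-0.08 and -0.10).

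The actin-binding and PDZ-LIM proteins split by gene. *Synpo2* (myopodin; -0.55 and -0.56), *Palld* (palladin; -0.44 and -0.43), *Pdlim5* (-0.43 and -0.37) and *Synpo2l* (-0.26 and -0.32) fell in both comparisons of homozygotes, and *Pdlim3* fell against controls (-0.38). *Pdlim1* rose in both (0.26 and 0.20). *Myoz1*, a calsarcin like *Myoz2*, rose against controls (0.60), as did *Cryab*, a small heat shock protein of the Z-disc (0.30). The genes above that rose were short, with exonic lengths of 1503 (*Pdlim1*), 1294 (*Myoz1*) and 1185 bases (*Cryab*). Those that fell had 4629 (*Synpo2l*) to 9403 bases (*Synpo2*), apart from *Pdlim3* with 1578. The calls of *Synpo2*, *Pdlim5* and *Myoz1* were kept in all 22 alternatives, including removal of the length trend. Those of *Palld*, *Synpo2l*, *Pdlim1*, *Pdlim3* and *Cryab* were each lost in at least 1. The part of length in this split was not tested. *Des*, which encodes desmin, had the highest mean value of the list without correction for length. It fell against heterozygotes (-0.35, limma adjusted p = 0.00788) and lay at -0.23 against controls (0.0508). *Flnc* (filamin C; -0.47) and *Xirp1* (-0.51) fell against heterozygotes, with -0.36 and -0.34 against controls that were not called.

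*Nrap*, which encodes an actin-binding protein of nascent myofibrils, had 2 overlapping identifiers between which its reads were divided. One was called lower against heterozygotes (-0.94) and the other against controls. The latter had few or no reads in homozygotes and also in heterozygotes 2 and 3 (values 0.06 and 0.12). Summed over both, an alternative chosen after seeing the data, its value was 15.9, 20.0 and 18.3 in controls, 19.1, 22.9 and 16.0 in heterozygotes and 8.74, 10.1 and 9.68 in homozygotes. Every homozygous pool lay below all other pools, and the differences were -0.89 from controls (limma adjusted p = 0.00121) and -0.98 from heterozygotes (0.000828). *Neb*, the skeletal relative of *Nebl*, was at -0.78 against controls and was not called (limma adjusted p = 0.0646).

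Of 11 other M-band and myosin-binding genes 6 were tested, with 2 called lower in each comparison of homozygotes. *Obsl1*, which encodes the obscurin-like partner of titin and myomesin in the M-band, fell from 165, 187 and 188 in controls and 187, 177 and 169 in heterozygotes to 146, 144 and 130.0 in homozygotes (-0.36 and -0.34, limma adjusted p = 0.00382 and 0.00575). Its homozygous pools were below all others, as for *Actn2*. *Mybpc1*, the slow skeletal relative of *Mybpc3*, fell against controls (-0.61, SE 0.17) and *Speg*, which encodes a kinase of striated muscle, against heterozygotes (-0.42, SE 0.12). *Smpx*, with the highest mean value of the list without correction for length, was not called (-0.07 and -0.05).

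Titin carries signalling proteins along its length, and 10 of 12 such genes were tested. Against controls 1 was called higher and 3 lower, and against heterozygotes 4 lower. *Fhl2*, a LIM-only protein that binds titin, fell from 92.7, 101 and 96.0 in controls and 99.0, 99.6 and 116 in heterozygotes to 72.1, 63.2 and 62.9 in homozygotes (-0.55 and -0.66, limma adjusted p = 0.000610 and 0.000196). The related *Fhl1* (-0.28 and -0.23) and the ubiquitin ligase gene *Trim55* (MuRF2; -0.32 and -0.38) fell in both comparisons as well. *Trim54* (MuRF3) fell against heterozygotes (-0.82), whereas *Trim63* (MuRF1), of the same family, rose against controls (0.28, SE 0.07). *Ankrd1*, with the highest mean value of these genes without correction for length, encodes a stretch-responsive ankyrin repeat protein and was not called (-0.27 and -0.32).

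Assembly of the sarcomere and the length of its thin filaments depend on chaperones, leiomodins, formins and ubiquitin ligase adaptors. Of 18 such genes 14 were tested, with 1 called higher and 5 lower against controls and 7 lower against heterozygotes, at medians of -0.18 and -0.15. *Kbtbd10* (also known as *Klhl41*), a kelch protein of myofibril assembly, showed the largest decrease of the list, from 20.2, 26.8 and 26.5 in controls and 18.3, 22.8 and 25.7 in heterozygotes to 11.5, 13.1 and 13.2 (-0.92 and -0.79, limma adjusted p = 0.00104 and 0.00321). *Lmod2*, the leiomodin that elongates cardiac thin filaments, fell by 0.57 and 0.67, whereas its skeletal relative *Lmod3* rose against controls by 0.54 (SE 0.11). *Unc45b*, a myosin chaperone, fell by 0.36 and 0.55, and the formins *Fhod3* (-0.29 and -0.48) and *Daam1* (-0.31 and -0.31) fell in both comparisons. *Smyd1* (-0.19), a methyltransferase that binds myosin, and *Hspb7* (-0.31) fell against heterozygotes. Without correction for length, *Smyd1* had the highest mean value of the list. Over the 4 lists 25 of 47 calls were kept in all alternatives and 22 were lost in at least 1. The least stable were those of *Pdlim1* and *Smyd1* against heterozygotes, each lost in 13 of 22 alternatives, and of *Flnc* against heterozygotes, lost in 10. In heterozygotes against controls limma called none of the 62 identifiers of these lists, with 7 at an unadjusted p under 0.05.

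**Figure D5:**
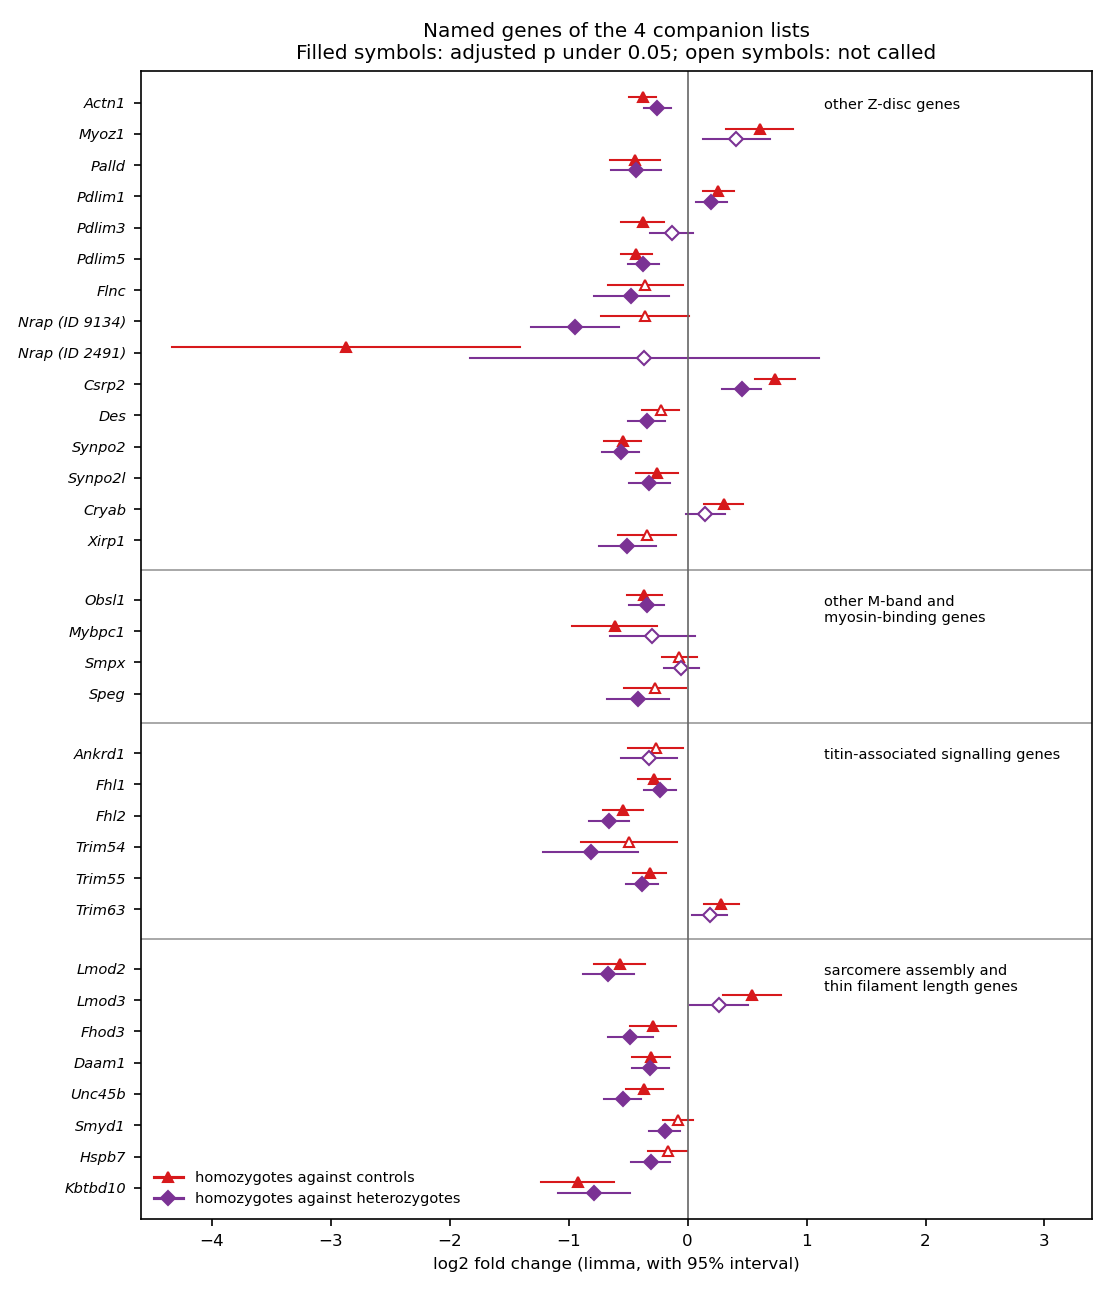
Log2 fold changes with 95% intervals (limma) in homozygotes against controls and against heterozygotes for genes of 4 lists of sarcomere genes. Shown are the called genes and the gene of each list with the highest mean value. Filled symbols have an adjusted p under 0.05. *Csrp2* was called higher in both comparisons (0.73 and 0.46), *Kbtbd10* lower in both (-0.92 and -0.79), and the 2 identifiers of *Nrap* are plotted separately.

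The nearest tested gene with a start within 100 kb on each side of the 9 genes was also examined, which gave 12 neighbours; on 6 sides there was none. Of the 12, 1 was called against controls and 3 against heterozygotes, where 15.2% and 13.6% of all genes were called, so that these counts do not set the neighbours apart. Against controls the called neighbour was *Mtr*, which encodes methionine synthase, starts 82760 bases from *Actn2* and rose (0.36, SE 0.08, limma adjusted p = 0.00855), in the opposite direction to *Actn2*. It also rose against heterozygotes (0.30, adjusted p = 0.0217 by limma). Against heterozygotes *Bmpr1a*, a BMP receptor gene near *Ldb3*, was lower (-0.22, limma adjusted p = 0.0378) and *E2f8*, near *Csrp3*, higher (0.26, adjusted p = 0.0195). *Heatr1* on the other side of *Actn2* was not called (0.02, SE 0.07), and no tested gene lay within the window on either side of *Ttn* or *Nebl*. The annotation places *Gm13938* within *Ttn* and *Gm13324* within *Nebl* on the opposite strand, and *Gm16724* over *Myom1* and a short annotation within *Myoz2* on the same strand; the counting is not stated to use strand, so that reads of such overlapping genes cannot be told apart.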

How the data were processed

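RNA-seq of poly(A) RNA from pools of 6 hearts (9 libraries, 3 per genotype; GAIIx) was deposited as 1 table of normalized signal per gene. Per the labels and the study's methods, the authors trimmed reads (cutadapt 1.6.1), aligned and quantified them against NCBIM37 and Ensembl build 65 (CASAVA 1.8, Bowtie2, listed as 0.12.7, and RSEM 1.20) and normalized the values before limma. Each deposited signal value equalled a whole number of reads plus 0.5, times 1 factor per library (100% of values within 0.01 reads), and all genes reached a value of 1 in 3 or more libraries. RSEM assigns shared reads by estimate, and whether strand was used is not given in the sources used here. Column names match the labels only for homozygotes; the columns of controls and heterozygotes were assigned by their means, which equal the study's group averages, and are numbered as in the column names. Nothing in the table ties a pool to a litter, so p-values measure the spread between pools.

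The main test was limma 3.58.1 (R 4.3.3) with trend on log2(value + 0.5), all 9 libraries and 14011 genes, with Benjamini-Hochberg adjustment; the fold change understates that of low genes. The test was checked on simulated data. Alternatives comprised edgeR 4.0.16, DESeq2 1.42.0 and voom on the recovered reads, pseudocounts of 0.1 and 1, filters at mean values of 1 and 10, quantile normalization, fits of the compared groups or without trend, an adjusted p under 0.01, removal of the trend with length (loess, span 0.3), a replicate block and leaving out each library. Names, positions and lengths of 13987 genes were taken from GENCODE M1 (NCBIM37). The 9 genes, the lists of other sarcomere genes and markers and the tests were chosen with earlier results of these data known. Genes named were all 9, *Ctcf*, the nearest neighbours, the 3 genes of most similar profile, and the called genes of the 4 lists. The gene with the highest mean value of each list was also named. Chosen after their values were seen were *Actn4*, *Neb*, *Csrp1*, *Capza1*, *Mypn*, *Cx3cr1* and called markers. Same-numbered libraries did not deviate together (r from -0.14 to 0.13 over 9847 genes), so the numbers were not used as pairs. A result of the motif search is not reported here.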

Additional observations from a re-analysis of the deposited data

How the results depend on the processing

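Of 594 values recomputed for the 9 genes, 540 kept their direction and their side of the threshold, 9 lost and 13 gained a call, and 32 changed sign. Against controls the count of called genes was 4 under quantile normalization, 1 with the length trend removed, and 0 in limma without the trend and at an adjusted p under 0.01; it ranged from 1 to 5 when each library was left out, being 5 without homozygote 2 and 1 without each control, homozygote 1 or homozygote 3. Against heterozygotes it was 4 under quantile normalization, 1 in limma without the trend and from 2 to 4 with each library left out (4 without homozygote 2). In heterozygotes against controls it was 0 throughout. The replicate block, by numbers that do not pair the pools, gave 2, 2 and 0 called genes, the same counts as without pairing, and it changed no call of the 9 genes, while the calls of *Pdlim1*, *Speg*, *Fhl1* and *Smyd1* against heterozygotes were lost under it. The causes of these changes were not tested.

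With the length trend removed, homozygotes against controls gave 0.072 for *Ttn*, -0.044 for *Tcap*, 0.029 for *Ldb3* and -0.013 for *Myoz2*, homozygotes against heterozygotes -0.10 for *Tcap* and -0.034 for *Csrp3*, and heterozygotes against controls 0.30 for *Ttn*. On recovered reads *Ttn* in heterozygotes against controls was 0.0248 in edgeR with TMM, 0.0240 in edgeR with DESeq2 size factors and 0.0245 in DESeq2, and *Myoz2* in homozygotes against controls was -0.00196, -0.00101 and -0.000777. With each library left out in turn, the difference of homozygotes from controls ranged from -0.095 to 0.050 for *Ldb3*, from -0.12 to 0.027 for *Mybpc3* and from -0.046 to 0.092 for *Myoz2*. The difference from heterozygotes ranged from -0.072 to 0.15 for *Tcap* and from -0.00985 to 0.043 for *Myoz2*. Heterozygotes against controls ranged from -0.26 to 0.24 for *Ttn*, from -0.025 to 0.19 for *Tcap*, from -0.064 to 0.075 for *Myoz2* and from -0.00648 to 0.11 for *Nebl*. Over all genes, limma called 2133, 1901 and 20 in the 3 comparisons, DESeq2 1647, 1418 and 40, limma without the trend 1196, 1063 and 10, and an adjusted p under 0.01 left 858, 722 and 13. With 3 pools per genotype, the intervals around *Tcap* and *Ttn* limit what could be detected.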

Other observations

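Among other Z-disc genes, 3 that were not called were chosen after their values were seen. *Csrp1*, the third gene of the cysteine and glycine-rich LIM family beside *Csrp2* and *Csrp3*, was at -0.03 in homozygotes against controls and 0.02 against heterozygotes. The actin capping gene *Capza1*, whose product caps barbed ends at the Z-disc, was at 0.01 and -0.02. *Mypn*, which encodes myopalladin, the striated muscle relative of palladin, was at -0.17 and -0.47 (SE 0.19 for both), the latter at a limma adjusted p of 0.112 with all homozygous below all heterozygous pools.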
